A study of Homo sapiens with 4 samples.

Results

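ID1, ID2, ID3 and ID4, the genes of the inhibitor of DNA binding (ID) proteins, were followed across 4 single-cell RNA libraries of HCC1143 cells. They were chosen by name, 4 of the 18131 genes listed in the count tables, and all 4 were listed in each table. The choice was made with their measured levels known: ID3 had been seen to be low after 24 h of paclitaxel, so the levels of the 4 genes and the ratios between libraries are given as a description.

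ID proteins carry a helix-loop-helix domain but lack the basic region with which related factors grip DNA. They pair with E proteins such as TCF3 and TCF12, and these pairs cannot bind E-box sequences, so that ID proteins hold back E-protein targets. Transcription of ID genes is a standard readout of bone morphogenetic protein (BMP) signalling through its SMAD proteins, and in breast epithelium ID proteins are known from proliferating and poorly differentiated cells.

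HCC1143 is an established line from a triple-negative breast carcinoma. The groups were cells given 1 nM paclitaxel, a taxane that stabilises microtubules, for 24 h, cells given the solvent DMSO for 24 h, cells given 1 nM paclitaxel for 72 h, and cells given DMSO for 72 h. Drug or solvent was added 24 h after plating. Each group was 1 library of 1 line, captured on the 10x Chromium platform by poly(A) tail. No comparison below has a replicate check, and no p-value was computed.

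The kept cells numbered 776 of 778 (paclitaxel 24 h), 1101 of 1102 (DMSO 24 h), 520 of 526 (paclitaxel 72 h) and 783 of 788 (DMSO 72 h), with summed depths of 34850724 to 72024235 unique molecular identifiers (UMIs) and medians of 54864 to 59670 UMIs per cell. The paclitaxel and DMSO libraries of 24 h shared 4 barcodes, and the DMSO libraries of 72 h and 24 h shared 3. Epithelial identity was checked with 9 markers (EPCAM, CDH1, EGFR and 6 keratins), all measured in each library, and their summed level was 2358 to 5285 counts per 1000000 UMIs (CPM). VIM, the mesenchymal filament gene vimentin that basal-like lines also express, had 1287 to 1908 CPM. Of the receptor genes, ERBB2 was at 20.4 to 23.5 CPM, ESR1 at 0.306 to 0.660 CPM, and PGR was not listed. At most 6 of 10 endothelial markers were listed in a library (summed level 10.5 to 22.3 CPM, PECAM1 not listed) and at most 4 of 10 fibroblast markers (13.2 to 17.2 CPM, COL1A2 and COL3A1 not listed). At most 4 of 10 leukocyte markers were listed, with a sum of 24.7 CPM in the paclitaxel 72 h library, of which CD68 was 19.6 CPM, and of 7.41 to 9.04 CPM in the others. The median share of ribosomal protein UMIs was 33.2% with 24 h of paclitaxel and 27.1% with 24 h of DMSO, and 27.5% with 72 h of paclitaxel and 40.6% with 72 h of DMSO. The libraries also differed in cell cycle calls: G2/M calls, made on cells of at least 20000 UMIs, were 40.9% of those cells with 24 h of paclitaxel and 56.9% with 24 h of DMSO, and 20.2% with 72 h of paclitaxel and 21.9% with 72 h of DMSO. Phases were scored within each library, so a call may not mark the same kind of cell in different libraries.

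A level is the CPM of UMIs summed over the kept cells. A ratio of 2 libraries is given as log2 with an exact 95% interval that covers counting error only, and a gene passed the call rule if it differed by at least 1.5-fold, averaged at least 10 CPM and had an interval without a ratio of 1. Scaling moved all genes: the median log2 ratio of all genes was -0.14 for paclitaxel over DMSO at 24 h and 0.28 at 72 h. A relative log2 ratio is a ratio minus that median.

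The 4 genes lie on separate chromosomes. In GENCODE release 29 on GRCh38, ID1 spans chr20:31605283-31606515 on the plus strand, ID2 chr2:8678845-8684453 on the plus strand, ID3 chr1:23557918-23559794 on the minus strand and ID4 chr6:19837386-19840684 on the plus strand. ID2 overlaps the antisense gene ID2-AS1 at chr2:8666636-8681863, which had 0.250 to 0.386 CPM.

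Upstream sequence is shown for ID1, one of the members that was lower with paclitaxel at 24 h, and for ID4, whose interval at 24 h included no change, because these windows lie outside the annotated exons of GENCODE, apart from the last 6 bases of the ID1 window, which are left off the printed sequence. Capitals mark matches, on either strand, to 6 motifs that were searched in the 250 bases before the RefSeq start: the GC-rich SMAD motif GGCGCC, the SMAD palindrome GTCTAGAC, the E-box CANNTG, the cyclic AMP response element TGACGTCA, the CCAAT box and the TATA box TATAAA. The sequences are RefSeq's, build GRCh38.p14, read 5′ to 3′ on the gene's strand.
ID1, chr20:31605039-31605282, plus strand: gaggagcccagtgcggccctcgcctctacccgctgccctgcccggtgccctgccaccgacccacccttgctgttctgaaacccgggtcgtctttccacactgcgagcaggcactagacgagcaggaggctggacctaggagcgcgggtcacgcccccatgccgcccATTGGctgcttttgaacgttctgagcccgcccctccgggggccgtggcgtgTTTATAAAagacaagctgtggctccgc
ID4, chr6:19837120-19837369, plus strand: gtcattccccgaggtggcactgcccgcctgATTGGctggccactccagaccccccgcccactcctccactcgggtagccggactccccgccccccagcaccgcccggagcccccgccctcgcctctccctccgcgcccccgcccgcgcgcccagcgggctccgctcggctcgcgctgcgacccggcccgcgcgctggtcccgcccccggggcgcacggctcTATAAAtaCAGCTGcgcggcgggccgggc
In the ID1 window the capitals are CCAAT on the minus strand, first base 84 before the start, and overlapping TATAAA matches on both strands, first bases 33 and 31 before it. These distances count from the RefSeq start and so include the 6 bases not printed. In the ID4 window they are CCAAT on the minus strand (220 before the start), TATAAA (29) and the E-box CAGCTG (21). The ID2 window held 1 E-box and 3 CCAAT matches, and 202 of its 250 bases fall in an exon of a longer GENCODE transcript. The ID3 window held none of the 6 motifs and lies wholly inside such an exon. Across 35116 promoters of the same length, TATAAA was found in 10.7%, CCAAT in 32.0%, CANNTG in 61.8%, GGCGCC in 16.4%, TGACGTCA in 1.65% and GTCTAGAC in 0.182%. The SMAD motifs and the cyclic AMP response element had no match in any of the 4 windows. Sequence farther upstream was not searched, so these absences hold for the 250 bases only and do not show that a gene lacks such sites.

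**Figure D1:**
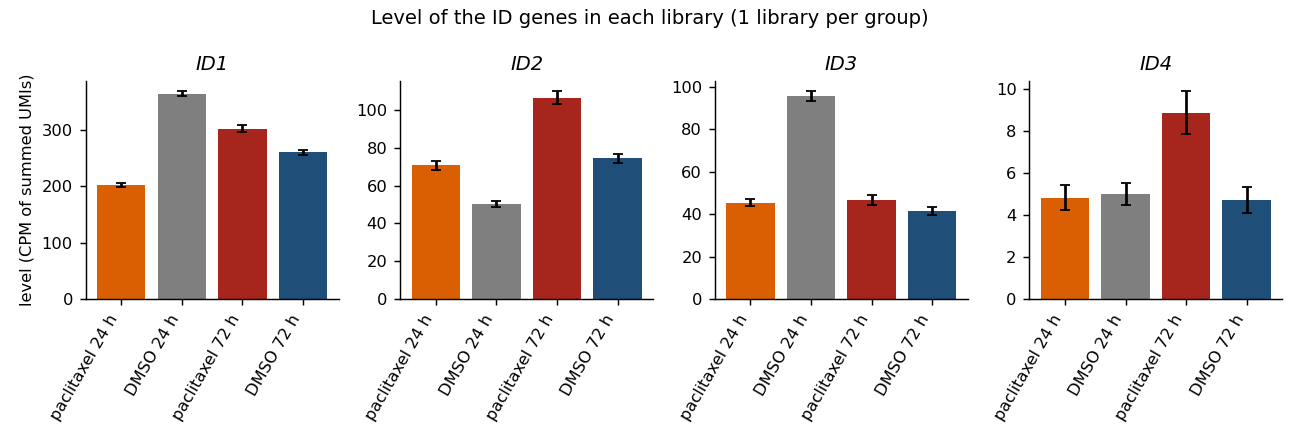
Level of each ID gene, in CPM of summed UMIs, in the 4 libraries; each bar is 1 library and error bars are exact 95% Poisson intervals. ID3 stands at 95.6 CPM in DMSO at 24 h and between 41.7 and 46.8 CPM in the other 3 libraries, while ID2 is lowest in DMSO at 24 h.

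After 24 h of paclitaxel, ID1 and ID3 were lower than in DMSO, ID2 was higher by less than 1.5-fold, and ID4 did not separate from its DMSO level. ID3, which restrains E proteins in lymphoid development, had 45.5 CPM in paclitaxel at 24 h (95% interval 43.8 to 47.4), against 95.6 CPM in DMSO at 24 h (93.4 to 97.9). The log2 ratio was -1.07 (-1.14 to -1.004), which placed ID3 sixth from the lowest of 8096 genes. In paclitaxel at 24 h, 2528 UMIs of ID3 were counted over 776 cells, against 6887 UMIs over 1101 cells in DMSO. ID1, the member most often used as a BMP target gene, had 202 CPM in paclitaxel at 24 h (198 to 206), against 363 CPM in DMSO at 24 h (359 to 368). Its log2 ratio was -0.85 (-0.88 to -0.81). ID2, which also binds the retinoblastoma protein, had 70.6 CPM in paclitaxel at 24 h (68.4 to 72.9), against 50.2 CPM in DMSO at 24 h (48.6 to 51.8), a log2 ratio of 0.49 (0.43 to 0.56) that stayed under the call rule. ID4, known in the mammary gland from basal and stem-like cells, had 4.83 CPM in paclitaxel and 4.98 CPM in DMSO at 24 h (log2 ratio -0.05, -0.28 to 0.19), and it was too low for the call rule in every comparison. With totals that leave out MT- and ribosomal protein genes, and with TMM factors, ID2 at 24 h passed the call rule at 0.59, and ID4 turned to 0.05.

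Of the 3 ID genes measured at 24 h (at least 10 CPM), 2 passed the call rule, both lower, beside 7.62% of all genes in either direction, 3.62% as lower and 4% as higher. The rule for choosing the genes used this contrast, so nothing is read from that count. On either side of 1.5-fold, the nearest member inside was ID1 (1.80-fold lower) and the nearest outside ID2 (1.41-fold higher). Relative to the median of all genes the log2 ratios were -0.93 for ID3, -0.71 for ID1 and 0.63 for ID2. The proportions of the family moved with them: for each 100 UMIs of ID1 there were 22.5 of ID3 in paclitaxel at 24 h (21.6 to 23.5) and 26.3 in DMSO at 24 h (25.6 to 27.0). For ID2 the count per 100 UMIs of ID1 was 35.0 in paclitaxel at 24 h (33.7 to 36.3), against 13.8 in DMSO at 24 h (13.3 to 14.3).

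At 72 h the difference between paclitaxel and DMSO seen in ID1 and ID3 at 24 h was not present in the summed levels. ID3 had 46.8 CPM in paclitaxel at 72 h (44.6 to 49.2), against 41.7 CPM in DMSO at 72 h (39.9 to 43.5), a log2 ratio of 0.17 (0.07 to 0.26). ID1 had 302 CPM in paclitaxel at 72 h (296 to 308), against 260 CPM in DMSO at 72 h (255 to 264), a log2 ratio of 0.22 (0.18 to 0.25). ID2 had 106 CPM in paclitaxel at 72 h (103 to 109.6), against 74.3 CPM in DMSO at 72 h (71.9 to 76.8), a log2 ratio of 0.51 (0.45 to 0.58). ID4 had 8.84 CPM in paclitaxel at 72 h (7.88 to 9.88), against 4.71 CPM in DMSO at 72 h (4.13 to 5.36), a log2 ratio of 0.91 (0.66 to 1.16). None of the 3 measured ID genes passed the call rule at 72 h, beside 27.3% of all genes (25.2% higher, 2.13% lower). Relative to the median of all genes, ID1 stood at -0.06, ID3 at -0.11 and ID2 at 0.23, so the small excess of ID1 and ID3 in paclitaxel at 72 h was no larger than that of the median gene. With totals that leave out MT- and ribosomal protein genes the log2 ratios at 72 h were -0.08 for ID1 and -0.13 for ID3, and with TMM factors -0.07 and -0.12, so the direction of both depends on the scaling. The difference between the 24 h and 72 h effects was not tested, since it would rest on 1 library per group.

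The level of ID3 in DMSO itself differed between the times. It had 41.7 CPM in DMSO at 72 h and 95.6 CPM in DMSO at 24 h, a log2 ratio of -1.20 (-1.27 to -1.13) that passed the call rule. Of all genes, 31.5% passed it in this comparison, 25.1% as lower and 6.43% as higher. ID1 was lower by -0.48 (-0.51 to -0.45) and ID2 higher by 0.57 (0.50 to 0.63) on the log2 scale, and neither passed. Relative to the median log2 ratio of this comparison, -0.29, ID3 stood at -0.91, ID1 at -0.20 and ID2 at 0.85. The comparisons with DMSO at 24 h share that library: paclitaxel at 72 h over DMSO at 24 h gave -1.03 for ID3 (lower), 1.08 for ID2 (higher) and -0.27 for ID1, beside 27.9% of genes called (16.2% higher, 11.8% lower). Between the paclitaxel libraries, 72 h over 24 h, ID3 was at 0.04 (-0.05 to 0.13), ID2 just inside the call rule at 0.59 and ID1 just outside it at 0.58, beside 14.8% of genes called (12.2% higher, 2.65% lower).

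Ordered by level, ID3 was highest in DMSO at 24 h, followed by paclitaxel at 72 h, paclitaxel at 24 h and DMSO at 72 h. Of the neighbours in this order, the paclitaxel libraries of 72 h and 24 h had overlapping counting intervals. ID1 ran from DMSO at 24 h through paclitaxel at 72 h and DMSO at 72 h to paclitaxel at 24 h, with no overlap of intervals. ID2 ran from paclitaxel at 72 h through DMSO at 72 h and paclitaxel at 24 h to DMSO at 24 h, and the intervals of its middle pair overlapped. ID4 was highest in paclitaxel at 72 h, and its intervals in the other 3 libraries overlapped. These intervals leave out the spread between cells. Without the 5 cells with the most UMIs of the gene in each library, the orders of ID1 and ID3 changed. ID1 then had 250 CPM in paclitaxel and 252 CPM in DMSO at 72 h. ID3 was then lowest in paclitaxel at 72 h (33.6 CPM), under DMSO at 72 h (39.5 CPM) and paclitaxel at 24 h (42.2 CPM).

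To set shares of cells side by side, the UMIs of each cell were drawn down to 20000, which left 750 cells with paclitaxel and 1080 with DMSO at 24 h, and 481 with paclitaxel and 766 with DMSO at 72 h. ID3 was detected in 43.1% of thinned cells in paclitaxel at 24 h (exact binomial 95% interval 39.5 to 46.7) and in 71.9% in DMSO at 24 h (69.1 to 74.5). At 72 h it was detected in 37.8% of cells in paclitaxel (33.5 to 42.3) and in 47.3% in DMSO (43.7 to 50.9). So at 72 h fewer paclitaxel cells held an ID3 UMI although the summed level was slightly higher. Unthinned, ID3 was detected in 70.6% of cells in paclitaxel and 91.6% in DMSO at 24 h, and in 60.4% in paclitaxel and 71.9% in DMSO at 72 h. ID1 was detected in 88.0% of thinned cells in paclitaxel and 98.7% in DMSO at 24 h, with medians of 3 and 7 UMIs per cell. At 72 h the ID1 shares were 84.6% in paclitaxel and 89.9% in DMSO, with medians of 3 and 4 UMIs. Unthinned, the ID1 shares were 96.3% in paclitaxel and 100% in DMSO at 24 h, and 92.7% in paclitaxel and 97.7% in DMSO at 72 h.

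ID2 went the other way at 24 h and again parted from its summed level at 72 h. It was detected in 66.3% of thinned cells in paclitaxel at 24 h (62.8 to 69.6) and in 54.1% in DMSO at 24 h (51.0 to 57.1). At 72 h the shares were 60.7% in paclitaxel (56.2 to 65.1) and 69.5% in DMSO (66.1 to 72.7), an order opposite to that of the CPM. Unthinned, the ID2 shares were 85.6% in paclitaxel and 80.1% in DMSO at 24 h, and 81.7% in paclitaxel and 89.5% in DMSO at 72 h. ID4 was detected in 8.27% of thinned cells in paclitaxel and 9.81% in DMSO at 24 h, and in 14.8% in paclitaxel and 9.01% in DMSO at 72 h. Its unthinned shares were 21.9% in paclitaxel and 21.6% in DMSO at 24 h, and 26.3% in paclitaxel and 19.9% in DMSO at 72 h. The libraries hold 1 cell line, so there is no cell type without ID expression from which a background share of free RNA could be read, and low shares such as those of ID4 are given without that comparison.

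**Figure D2:**
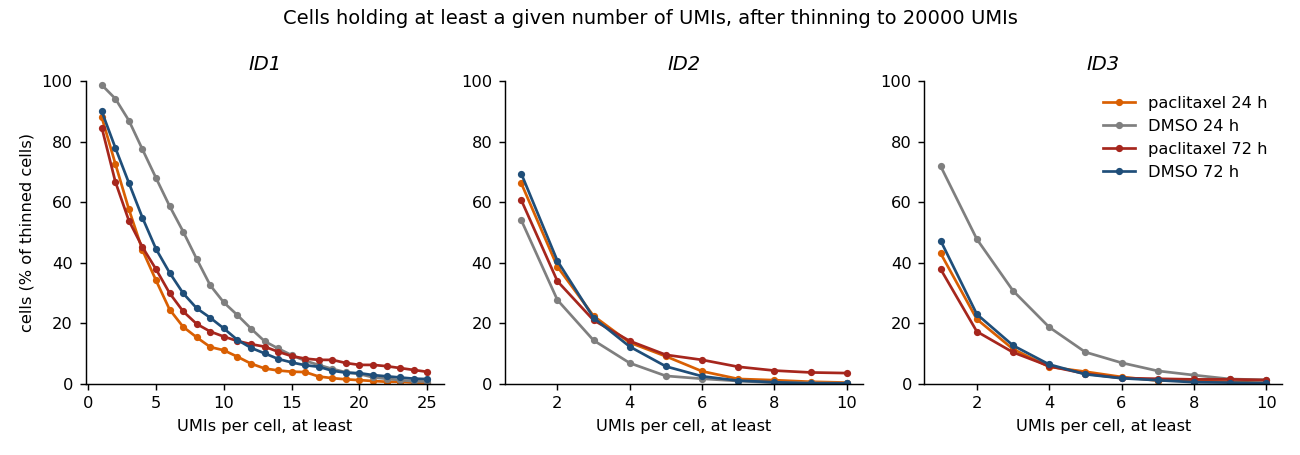
Share of thinned cells, in percent, that held at least the number of UMIs on the horizontal axis, for ID1, ID2 and ID3; each line is 1 library. The DMSO 24 h line of ID1 and ID3 lies above the others at low counts, and the paclitaxel 72 h line is lowest at 1 UMI for ID1 and ID3 but highest at the far right for ID1 and ID2.

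The gap between share and level in paclitaxel at 72 h came with a few cells that held very many ID UMIs. A single cell held 790 of the library's 10525 ID1 UMIs (7.51%) among 32722 UMIs in all, together with 1 UMI of ID2 and 0 of ID3. The highest ID1 cell of the other libraries held 187 UMIs (paclitaxel 24 h), 170 (DMSO 24 h) and 130 (DMSO 72 h). A cell with 237851 UMIs in all, called G2/M, held 421 UMIs of ID2, 326 of ID1, 123 of ID3 and 11 of ID4. Another G2/M cell, with 111217 UMIs in all of which 0.474% were mitochondrial (MT-), held 218 of ID2, 193 of ID3, 163 of ID1 and 15 of ID4. Scrublet marked 3 cells of this library as doublets, none of them these, and whether such deep barcodes hold more than 1 cell was not tested further. In the other libraries the highest cell reached 44, 27 and 23 UMIs of ID2 and 63, 59 and 37 of ID3 (paclitaxel 24 h, DMSO 24 h, DMSO 72 h).

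The 5 cells with the most UMIs of each gene held 18.4% of ID1, 24.9% of ID2 and 29.4% of ID3 UMIs in paclitaxel at 72 h, against 3.90%, 2.93% and 6.04% in DMSO at 72 h. Without those 5 cells in each library, a comparison chosen after the cells had been seen, ID1 had 250 CPM in paclitaxel and 252 CPM in DMSO at 72 h. ID2 then had 80.9 CPM in paclitaxel and 72.8 CPM in DMSO at 72 h, and ID3 had 33.6 CPM in paclitaxel and 39.5 CPM in DMSO at 72 h. The log2 ratios at 72 h became -0.01 for ID1, 0.15 for ID2 and -0.23 for ID3, so the direction of ID1 and ID3 at 72 h rests on 5 cells per library. At 24 h the same removal gave -0.87 for ID1, 0.48 for ID2 and -1.15 for ID3, on the same side of the call rule as before.

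**Figure D3:**
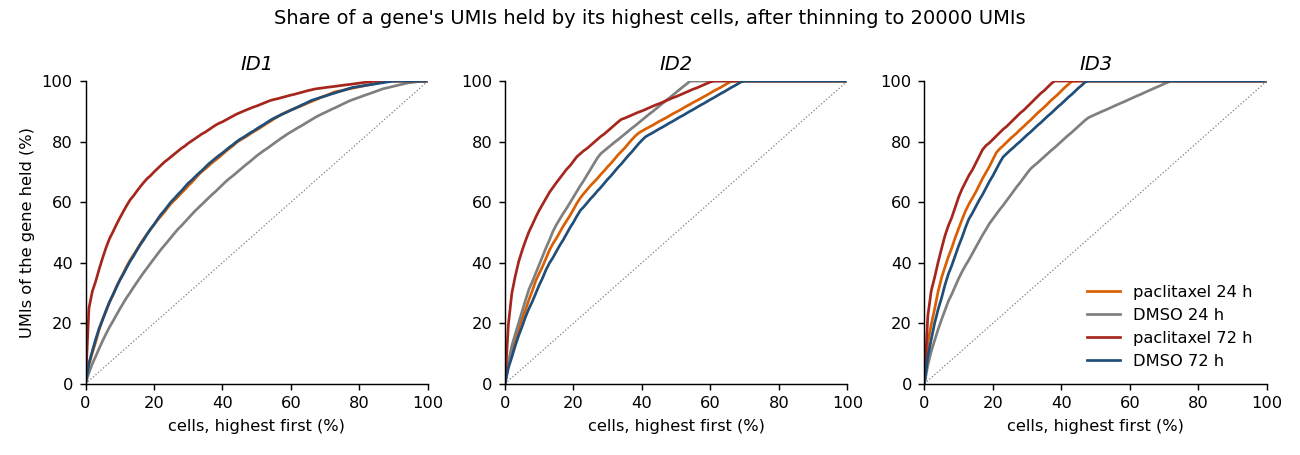
Share of a gene's UMIs, in percent, held by the highest cells, in percent of thinned cells ordered from the highest; each line is 1 library and the dotted diagonal marks equal UMIs in every cell. The paclitaxel 72 h line rises most steeply at the left: its top 10% of cells hold 54.7% of ID1, 57.3% of ID2 and 61.7% of ID3 UMIs, against 34.2%, 32.6% and 45.6% in DMSO at 72 h.

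Cells with a low mitochondrial share had higher summed levels of each ID gene in the same library. In paclitaxel at 72 h, 51 cells had under 2% MT- UMIs, against 6 (paclitaxel 24 h), 6 (DMSO 24 h) and 11 (DMSO 72 h) elsewhere. These 51 cells had a median of 33787 UMIs, against 59401 in the other cells of that library, and held 8.19% of its UMIs but 22.0% of its ID2 and 18.4% of its ID3 UMIs. Their levels were 285 CPM of ID2, against 90.2 CPM in the other cells, and 105 CPM of ID3, against 41.6 CPM. A single one of the 51 cells, the G2/M cell with 193 ID3 UMIs described above, held most of their 301 ID3 UMIs. Without the highest cell of each set, the levels were 39.4 CPM of ID3 in the remaining 50 cells (32.3 to 47.5), against 38.0 CPM in the others (35.9 to 40.2), so ID3 did not separate. ID2 had 217 CPM, against 77.6 CPM, on the same terms. Of the 596 ID2 UMIs left in the 50 cells, 1 cell held 108. Among the 5 cells of this library with the most ID2 UMIs, 3 had under 2% MT-. The unthinned share of cells with an ID3 UMI was 56.9% under 2% MT- and 60.8% in the others, and that with an ID2 UMI 78.4% and 82.1%. Because the cells under 2% MT- were shallower, these shares do not tell whether detection differed at equal depth. ID1 had 446 CPM in the cells under 2% MT- and 289 CPM in the others, and ID4 22.1 CPM and 7.66 CPM. Without the highest cell of each set, ID1 had 370 CPM (347 to 393), against 265 CPM (259 to 270). ID4 then had 17.5 CPM (12.9 to 23.2), against 7.34 CPM (6.43 to 8.34). Without cells under 2% MT-, the log2 ratio at 72 h was 0.27 for ID2 (0.20 to 0.34), 0.15 for ID1 (0.11 to 0.19) and -0.02 for ID3 (-0.12 to 0.08). The part of cell quality in the 72 h levels was not tested.

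Within cell cycle calls, ID1 and ID3 were lower in paclitaxel at 24 h in G1, S and G2/M alike. The log2 ratio of ID3 was -0.96 in cells called G1 (-1.09 to -0.83), -1.29 in S (-1.45 to -1.14) and -1.08 in G2/M (-1.17 to -0.98). That of ID1 was -0.82 in G1, -1.18 in S and -0.77 in G2/M. All 6 of these ratios passed the call rule, also without the 3 cells with the most UMIs of the gene in each library's phase, beside 11.1% of genes in G1, 14.2% in S and 4.69% in G2/M. They split by phase the same 24 h contrast that was known when the genes were chosen, so nothing is read from that count. ID3 had 50.7, 46.3 and 42.3 CPM in G1, S and G2/M cells of paclitaxel at 24 h, against 98.6, 113 and 89.2 CPM in DMSO at 24 h. ID2 was at 0.35 in G1, 0.81 in S and 0.34 in G2/M, and passed the call rule in S.

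At 72 h the ratios of summed levels differed between the phase calls. In cells called G1, ID3 had 38.9 CPM in paclitaxel and 54.0 CPM in DMSO (log2 ratio -0.47, -0.61 to -0.34). In S it had 34.0 CPM in paclitaxel and 37.6 CPM in DMSO (-0.15, -0.37 to 0.08). In G2/M it had 75.5 CPM in paclitaxel and 26.9 CPM in DMSO (1.49, 1.30 to 1.68). In G2/M cells at 72 h ID1 (0.62), ID2 (1.31) and ID3 (1.49) all passed the call rule as higher, beside 28.0% of genes in either direction, while none passed in G1 (30.6% of genes) or S (26.8%). The G2/M calls held 97 cells in paclitaxel and 168 in DMSO at 72 h, and they include the cells of 421 and 218 ID2 UMIs described above. The 3 highest cells of each gene held 62.8% of ID3, 48.2% of ID2 and 22.9% of ID1 UMIs in G2/M cells of paclitaxel at 72 h, against 12.6%, 5.46% and 6.43% in DMSO at 72 h. Without the 3 highest cells in each library, a comparison chosen after the data were seen, the G2/M ratios at 72 h were 0.31 for ID3 (0.06 to 0.55), 0.48 for ID2 and 0.38 for ID1, and none passed the call rule. All 3 calls in G2/M at 72 h thus rest on 3 cells per library. The share of G2/M cells with an ID3 UMI after thinning was 34.0% in paclitaxel and 33.3% in DMSO at 72 h.

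**Figure D4:**
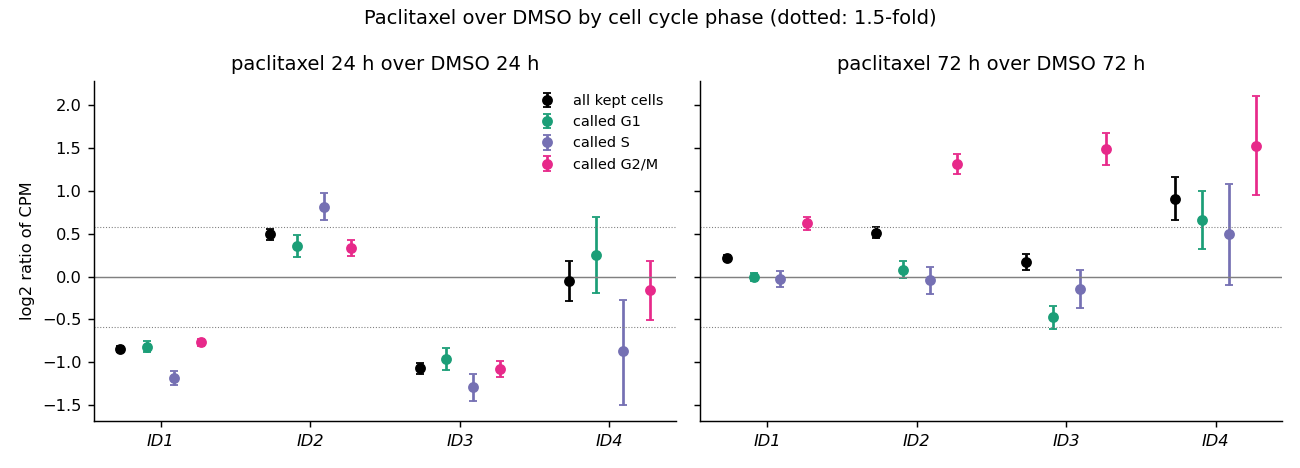
Log2 ratio of CPM, paclitaxel over DMSO at 24 h (left) and 72 h (right), for all kept cells and for cells called G1, S and G2/M; bars are exact 95% intervals for counting error and dotted lines mark 1.5-fold. At 24 h ID1 and ID3 lie below the lower dotted line in all 3 phases, and at 72 h G2/M points of ID1, ID2 and ID3 lie above the upper one; without the 3 highest cells of each library those 3 points would stand at 0.38, 0.48 and 0.31, inside the lines.

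Across single cells of the same library, ID1 and ID3 varied together more than other pairs of the family. Pearson's r of log2(thinned UMIs + 1) between ID1 and ID3 was 0.24 (paclitaxel 24 h), 0.30 (DMSO 24 h), 0.30 (paclitaxel 72 h) and 0.43 (DMSO 72 h). Between ID1 and ID2 it was 0.11, 0.18, 0.18 and 0.17, and between ID2 and ID3 0.04, 0.15, 0.21 and 0.07, in the same order of libraries. These are descriptions over cells that share a library, and counts near 0 in many cells limit them. Among 2493 genes of at least 50 CPM, ID3 was the gene with the highest mean r to ID1 over the 4 libraries (0.32), and ID1 the one with the highest mean r to ID3. Behind ID3, the genes nearest to ID1 were IER3, an immediate early gene (0.19), JUNB, an AP-1 subunit (0.17), and DDIT4, an inhibitor of mTORC1 (0.17). Behind ID1, those nearest to ID3 were JUNB (0.16), RGCC (0.15) and the lysosomal protease gene CTSC (0.13). For ID2 they were other transcription factor genes: HES1 (0.19), ELF3 (0.18), SOX4 (0.18) and EN1 (0.18).

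The genes whose level followed the members over the 4 libraries were others. By the distance between centred log2 CPM over 4 libraries, the pattern of ID3 was nearest to that of GTF3A (0.21), the gene of transcription factor IIIA, then LSM3 (0.22), PMEPA1 (0.23), a TGF-beta target, and UQCR10 (0.25). GTF3A had 172 CPM (paclitaxel 24 h), 319 CPM (DMSO 24 h), 145 CPM (paclitaxel 72 h) and 141 CPM (DMSO 72 h), high in the same single library as ID3. For ID1 the nearest were the linker histone gene HIST1H1C (0.23), C6orf132 (0.26), NRDC (0.26) and MALL (0.28). ID2 had closer neighbours: GRN, the progranulin gene (0.10), MARCKSL1 (0.12), EMP1 (0.12) and VAMP2 (0.12). A likeness over 4 libraries rests on 4 points.

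Around the ID genes, neither the BMP ligands and receptors nor the BMP SMADs that were measured passed the call rule at 24 h or 72 h. The lists below were compiled with earlier results of these data known, and their counts stand beside 7.62% of genes called at 24 h and 27.3% at 72 h. Of 15 BMP ligand genes, 2 reached 10 CPM. BMP2 had 14.5 CPM in paclitaxel and 14.7 CPM in DMSO at 24 h, and 13.1 CPM in paclitaxel and 11.6 CPM in DMSO at 72 h. BMP5 had 32.9 CPM in paclitaxel and 29.05 CPM in DMSO at 24 h, and 37.7 CPM in paclitaxel and 30.7 CPM in DMSO at 72 h. Of 10 receptor genes, BMPR2, the main type II receptor, was the 1 measured at 24 h (23.0 CPM in paclitaxel, 24.2 CPM in DMSO). At 72 h it had 24.5 CPM in paclitaxel and 30.3 CPM in DMSO. Of the receptor genes, 3 were measured at 72 h, with a median log2 ratio of -0.31, against 0.28 for all genes. Of 4 BMP SMAD genes, 2 were measured at 24 h and 2 at 72 h. SMAD5, which carries the BMP signal, had 18.3 CPM in paclitaxel and 23.5 CPM in DMSO at 24 h (log2 ratio -0.36), and 19.5 CPM in paclitaxel and 18.6 CPM in DMSO at 72 h (0.07).

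Of the 8 measured BMP inhibitors and feedback genes, 1 was higher at 24 h and 3 at 72 h. None was lower, beside 3.62% of all genes called lower at 24 h and 2.13% at 72 h. BAMBI, a decoy receptor that dampens BMP and TGF-beta signalling, had 68.0 CPM in paclitaxel and 44.9 CPM in DMSO at 24 h (log2 ratio 0.60), and 94.9 CPM in paclitaxel and 51.2 CPM in DMSO at 72 h (0.89). FSTL3, which binds activins, had 18.9 CPM in paclitaxel and 7.72 CPM in DMSO at 72 h (1.29), and the ubiquitin ligase gene SMURF1 was at 0.63. FST, the gene of follistatin, which binds activins and some BMPs, was at 0.51 at 24 h and -0.30 at 72 h, and SMURF2 at -0.33 and 0.10. The median of the list was -0.26 at 24 h and 0.25 at 72 h, against -0.14 and 0.28 for all genes. Of 9 measured TGF-beta ligands, receptors and SMADs, none passed at 24 h and 2 were higher at 72 h: TGFB2 (92.9 CPM in paclitaxel, 45.8 CPM in DMSO, log2 ratio 1.02) and SKIL, a SMAD co-repressor (0.81). That list had medians of -0.12 at 24 h and 0.28 at 72 h.

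No measured partner of the ID proteins passed the call rule at 24 h, beside 7.62% of all genes, and nothing is read from so few genes. TCF3, the E protein also known as E2A, had 36.1 CPM in paclitaxel and 53.6 CPM in DMSO at 24 h (log2 ratio -0.57, -0.65 to -0.49), just short of 1.5-fold, and 30.7 CPM in paclitaxel and 33.4 CPM in DMSO at 72 h (-0.12). TCF12 was at -0.21 at 24 h and 0.03 at 72 h. None of 12 further partner and stability genes passed at 24 h. They include COPS5, a subunit of the COP9 signalosome (0.06), CDC20, an activator of the anaphase-promoting complex (-0.04), ETS1, a transcription factor whose activity ID proteins can block (-0.20), and USP1, a deubiquitinase that stabilises ID proteins, which had 82.1 CPM in paclitaxel and 116 CPM in DMSO at 24 h (-0.50). At 72 h, 4 of the 12 were higher: ETS2 (1.01), CDC20 (0.82), COPS5 (0.75) and FZR1 (0.63), the median of the list being 0.37. Of 5 measured genes whose E-box control ID proteins are known to oppose, none passed at 24 h, and at 72 h the cell cycle inhibitor genes CDKN1A (109 CPM in paclitaxel, 42.9 CPM in DMSO, log2 ratio 1.35) and CDKN2B (0.59) were higher. CDKN1A had 49.6 CPM in paclitaxel and 54.4 CPM in DMSO at 24 h (-0.13). A link between the levels of these genes and those of the ID genes was not tested.

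Other helix-loop-helix repressors, unlike ID proteins, bind DNA. None of those measured was lower at 24 h or 72 h, beside 3.62% and 2.13% of all genes called lower. At 24 h 2 of 4 measured were higher: BHLHE40 (62.2 CPM in paclitaxel, 36.7 CPM in DMSO, log2 ratio 0.76) and HES4 (195 CPM in paclitaxel, 124 CPM in DMSO, 0.66). At 72 h 3 of 6 were higher: HES7 (1.55), BHLHE40 (1.34) and HES6 (0.62). HES1, the Notch target, was at 0.29 at 24 h and 0.03 at 72 h. Of 7 measured inducers and repressors of ID transcription, 3 were higher at 24 h: MYCN (1.16), SOX4 (0.81) and MYC (0.69). At 72 h 5 were higher, led by ATF3, a stress factor known to repress ID1 with SMAD3, at 83.0 CPM in paclitaxel and 8.15 CPM in DMSO (3.35), with KLF4 (1.33), MYCN (1.05), MYC (0.72) and SOX9 (0.64). ATF3 had 19.8 CPM in paclitaxel and 15.1 CPM in DMSO at 24 h (0.39). No measured member of either list was lower at either time, and at those shares of all genes nothing is read from lists this short.

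**Figure D5:**
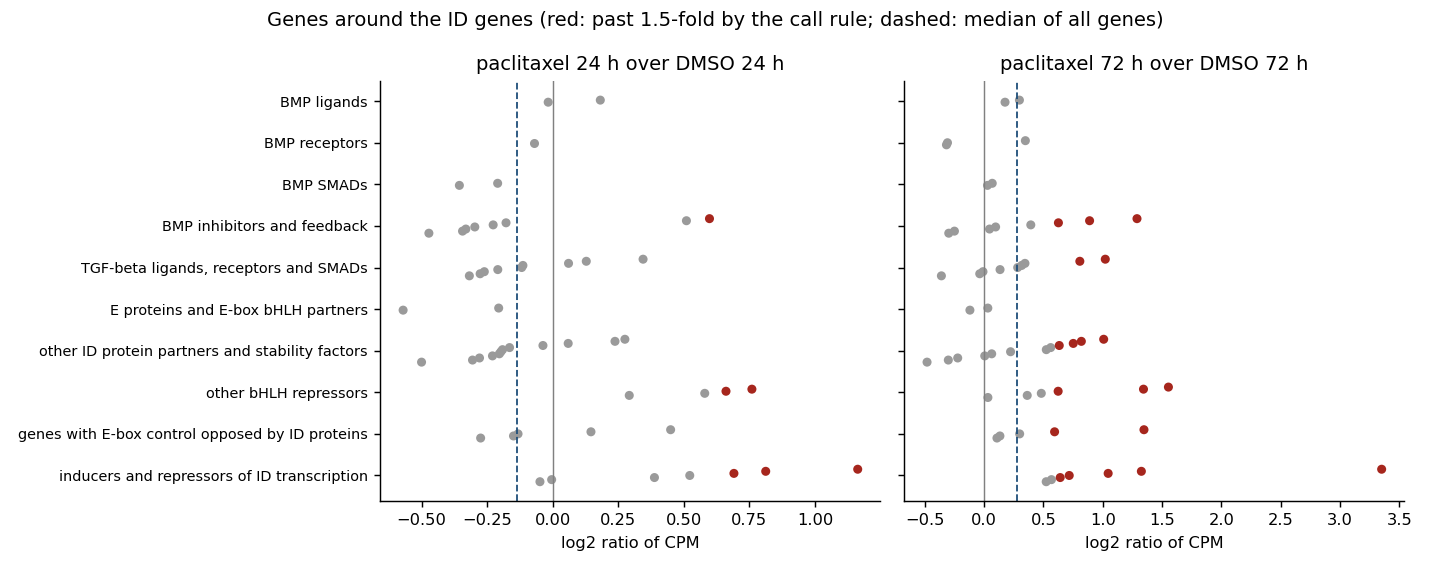
Log2 ratio of CPM, paclitaxel over DMSO at 24 h (left) and 72 h (right), for list members of at least 10 CPM, 1 point per gene; red points passed the call rule and the dashed line is the median of all genes (-0.14 at 24 h, 0.28 at 72 h). At 24 h the red points are BAMBI, BHLHE40, HES4, MYCN, SOX4 and MYC, all higher, and the BMP ligand, receptor and SMAD lists hold no red point at either time.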

How the data were processed

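Single-cell RNA was measured in 4 libraries of HCC1143 cells, 1 per group. The deposited values are raw UMI counts per gene symbol and cell, not normalized. The submitters' processing notes name Cell Ranger 2.0 and GRCh38. The rule by which cells entered the tables is not given in the sources used for this work. Listed genes were detected in 1% or more of a table's cells, so a gene missing from a table is not a measured 0.

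Barcodes with at least 500 genes and under 20% MT- UMIs were kept (3180 of 3194). UMIs were summed per library and scaled to CPM; a count of 0 would have allowed 0.0417 to 0.0861 CPM, from 3 counts. Ratios carry exact (Clopper-Pearson) 95% intervals, and levels exact Poisson intervals, which cover counting error alone. No test was possible with 1 library per group. Cells were thinned to 20000 UMIs for shares and correlations. Phases were called in these cells, separately in each library, with scanpy 1.11.5 on 43 S and 54 G2/M genes. Doublet calls by Scrublet numbered 4 (paclitaxel 24 h), 7 (DMSO 24 h), 3 (paclitaxel 72 h) and 1 (DMSO 72 h), and these cells were kept. TMM factors came from edgeR 4.0.16 (R 4.3.3). The intervals and the call rule were tested on simulated data. These were Poisson counts, as the intervals assume, without spread between cells or libraries, so the simulation cannot tell how the rule fares under such spread.

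The genes, lists and thresholds were chosen with earlier results of these data known. Named list genes are those past the call rule and up to 4 further members by level; genes like a member are the 4 nearest by distance over libraries and the 4 with the highest mean r across cells. Alternatives were other scalings, cell filters, cell subsets, minimum levels and thinning depths; leaving out the 7 shared barcodes, the 5 highest cells or the 3 highest cells within a phase, or VIM from the 10 epithelial markers, was chosen after seeing the data. Promoters and start sites are RefSeq's.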

Additional observations from a re-analysis of the deposited data

Results flagged for a closer look

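ID1 and ID3 had ratios of opposite sign at the 2 times. The log2 ratio of paclitaxel over DMSO was 0.22 at 72 h and -0.85 at 24 h for ID1, a difference of 1.06, and 0.17 at 72 h and -1.07 at 24 h for ID3, a difference of 1.24. The difference between the times was not tested, since each group is 1 library. The 72 h signs turned with the scaling and without the 5 highest cells of each library.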

How the results depend on the processing

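No paired analysis was possible because each group is 1 library and the labels give no replicate numbers. ID1 and ID3 at 24 h stayed lower and past the call rule under all 12 alternatives run. Their log2 ratios were -1.18 to -0.75 for ID1 and -1.29 to -0.96 for ID3. ID3 in DMSO at 72 h over 24 h also stayed so, at -1.73 to -0.87. A mean of per-cell CPM carries no interval, so for that alternative the interval part of the rule could not be applied. The other ID ratios changed sign or side of the rule under some settings, given here in log2, and the causes were not tested.

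Paclitaxel over DMSO at 72 h: ID1 -0.073 with TMM, -0.079 with totals without MT- and ribosomal protein genes, -0.0038 in G1, -0.028 in S, 0.62 in G2/M and -0.0075 without the 5 highest cells; ID2 -0.045 in S and 1.31 in G2/M; ID3 -0.12 with TMM, -0.13 with those totals, -0.022 without cells under 2% MT-, -0.47 in G1, -0.15 in S, 1.49 in G2/M, -0.19 as a mean of per-cell CPM and -0.23 without the 5 highest cells; ID4 0.61 with those totals. Paclitaxel over DMSO at 24 h: ID2 0.59 with TMM, 0.59 with those totals and 0.81 in S; ID4 0.049 with TMM, 0.054 with those totals and 0.25 in G1. Paclitaxel at 72 h over 24 h: ID1 0.60 with the stricter cell filter, 0.68 in G1, 0.63 in G2/M and 0.64 as per-cell mean; ID2 0.35 with TMM, 0.49 with those totals, 0.34 without cells under 2% MT-, 0.062 in G1, -0.22 in S, 0.55 as per-cell mean and 0.24 without the 5 highest cells; ID3 -0.20 with TMM, -0.063 with those totals, -0.14 without cells under 2% MT-, -0.38 in G1, -0.45 in S, 0.84 in G2/M, -0.18 as per-cell mean and -0.33 without the 5 highest cells; ID4 0.77 with those totals. DMSO at 72 h over 24 h: ID1 -0.88 in S and -0.76 in G2/M; ID2 0.71 with TMM, 0.86 with those totals and 0.64 in S; ID4 0.061 with TMM, 0.21 with those totals and 0.042 in G1. Paclitaxel at 72 h over DMSO at 24 h: ID1 -0.90 in S; ID2 0.41 in G1; ID3 -0.24 in G2/M; ID4 0.82 with those totals and -0.021 in S.

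Counts of genes called depended on scaling and minimum level. Paclitaxel over DMSO at 24 h gave 324 higher and 293 lower; lower genes were 143 with TMM, 163 with those totals and 480 as per-cell mean, and higher genes 563 with those totals. At 72 h it gave 2091 higher and 177 lower, against 884 and 691 with TMM and 1100 and 909 with those totals. Paclitaxel at 72 h over 24 h gave 437 higher and 711 lower with TMM, and 418 lower with those totals. DMSO at 72 h over 24 h gave 1314 lower with TMM, and 1435 higher and 854 lower with those totals. With a minimum of 50 CPM the counts, higher and lower, were 111 and 116 (paclitaxel over DMSO, 24 h), 702 and 69 (72 h), 253 and 79 (paclitaxel, 72 h over 24 h), 171 and 876 (DMSO, 72 h over 24 h) and 385 and 408 (paclitaxel 72 h over DMSO 24 h). With no minimum they were 1170 and 862 (24 h) and 4964 and 506 (72 h), 4267 and 383 (paclitaxel, 72 h over 24 h), 1974 higher (DMSO, 72 h over 24 h) and 4897 higher (paclitaxel 72 h over DMSO 24 h). Thinning to 10000 or 40000 UMIs, or none, moved the shares of cells with depth; at 24 h ID3 was detected in 28.9% of cells in paclitaxel and 54.9% in DMSO at 10000 UMIs, and in 62.7% and 89.1% at 40000. Leaving out the shared barcodes, chosen after seeing the data, changed no ID call. Without the 3 highest cells of each library within a phase, ID2 at 72 h in G1 turned to -0.10, and the 3 calls in G2/M at 72 h were lost.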
